A study of Homo sapiens with 36 samples.

Results

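The peaks of 2 proteins of chromosome folding, CTCF and the cohesin subunit Rad21, were compared in the human bronchial epithelial line BEAS-2B, abbreviated B2B. The members are every peak of both lists that lies on an autosome or on X or Y, 61225 of CTCF and 38888 of Rad21, together 100113 of the 475211 peaks in the 16 lists of the series. Chromatin was immunoprecipitated with antibody sc-271474x against CTCF and ab992 against Rad21, in 2 replicates each. No treatment or genetic change is given for these 4 samples. The authors merged the replicates before peaks were called, so that each protein has a single list and no value below has a replicate error. Intervals in parentheses are 95% Wilson or Newcombe intervals and cover counting error only.

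CTCF is a zinc finger protein that binds a long, asymmetric DNA motif. Cohesin is a ring-shaped complex of SMC1A, SMC3, RAD21 and a STAG subunit that is loaded onto chromatin and is thought to enlarge DNA loops until it is held at CTCF. Sites occupied by both are known as insulators and loop anchors, and loops often join motifs that point towards each other. Cohesin is also found at active start sites and enhancers without CTCF.

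BEAS-2B is an immortalised line derived from normal bronchial epithelium. In the H3K4me3 list of the same line, which marks active start sites, 5 of 8 epithelial markers had a peak within 1 kb of a start site (KRT7, KRT8, KRT18, EPCAM and CDH1), and KRT5, KRT19 and TP63 had none. Of the mesenchymal markers COL1A1, COL1A2 and VIM, COL1A1 and VIM had one. The 3 markers of differentiated airway cells (FOXJ1, SCGB1A1 and MUC5AC), the 2 leukocyte markers and the 2 endothelial markers had no peak.

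The sequences that the comparison turns on are those under the summits. A motif was learnt from the 2000 strongest CTCF peaks of chromosome 1, and its most informative stretch, positions 4 to 15 of 20, read CCACCAGGGGGC. The 5 sites with the smallest sum of CTCF and Rad21 ranks are shown first, as 61 bases of GRCh38 read along the motif strand, with the 12 bases that match this stretch in capitals.
paired site 1, chr5:81195203-81195263, minus strand: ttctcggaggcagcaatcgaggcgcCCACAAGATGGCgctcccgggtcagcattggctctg
paired site 2, chr2:171574232-171574292, plus strand: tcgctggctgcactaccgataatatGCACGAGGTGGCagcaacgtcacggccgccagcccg
paired site 3, chr12:108618263-108618323, minus strand: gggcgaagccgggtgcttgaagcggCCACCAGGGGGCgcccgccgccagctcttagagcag
paired site 4, chr10:104291526-104291586, plus strand: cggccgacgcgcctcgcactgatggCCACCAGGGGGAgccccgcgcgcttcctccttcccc
paired site 5, chr20:47384190-47384250, minus strand: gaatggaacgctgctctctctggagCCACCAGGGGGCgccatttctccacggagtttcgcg

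The strongest CTCF peaks with no Rad21 peak within 1 kb, and the strongest Rad21 peak with no CTCF peak within 1 kb, are set against them. Where no motif passed the threshold, the bases around the summit are given on the plus strand in lower case.
CTCF alone 1, chr15:79596161-79596221, minus strand: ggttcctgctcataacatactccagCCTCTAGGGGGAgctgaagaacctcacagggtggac
CTCF alone 2, chr19:51986916-51986976, plus strand: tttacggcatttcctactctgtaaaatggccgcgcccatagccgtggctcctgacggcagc
CTCF alone 3, chr15:50886024-50886084, minus strand: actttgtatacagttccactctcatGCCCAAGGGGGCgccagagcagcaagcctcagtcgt
Rad21 alone, chr13:44435221-44435281, plus strand: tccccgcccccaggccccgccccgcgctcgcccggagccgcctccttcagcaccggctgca

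The motif was present at all 5 paired sites and at 2 of the 3 CTCF sites without Rad21, and no match passed the threshold at the Rad21 site without CTCF. This Rad21 site lay 33 bp from a start of TSC22D1, a regulator of transcription. Its Rad21 pileup, the number of reads stacked at the summit, was 265. Of the 3 CTCF sites without Rad21, with CTCF pileups of 221, 228 and 251, the first was intergenic, 140 kb from the nearest protein-coding start, that of MINAR1. The second lay 90 bp from a start of the zinc finger gene ZNF350, and the third within an intron of a gene without protein product, near AP4E1.

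CTCF peaks were overlapped by Rad21 in 36.3% of cases (35.9 to 36.7, 22235 of 61225) when 1 shared base pair was required. Rad21 peaks were overlapped by CTCF in 57% (56.5 to 57.5, 22151 of 38888). Both values are also the background share against which the counts below are read. The lists covered 15.6 Mb and 14.2 Mb of the genome, 0.531% and 0.482% of its known bases. At positions 2 kb from a CTCF summit, 1.27% lay in a Rad21 peak, against 34.4% of the CTCF summits themselves. At positions 2 kb from a Rad21 summit 1.46% lay in a CTCF peak, against 52.8% of the Rad21 summits.

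The peaks without a partner were mostly far from one. Among the 38990 CTCF peaks without Rad21, the nearest Rad21 summit was a median of 18.0 kb away (18012 bp, quartiles 5991 and 47631 bp), and for 5.94% it was within 1 kb. Among the 16737 Rad21 peaks without CTCF, the nearest CTCF summit was closer, at a median of 7659 bp (quartiles 1879 and 20284 bp), and for 15.9% it was within 1 kb.

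Between chromosomes the share of CTCF peaks with Rad21 ranged from 17.1% on Y, which held 82 CTCF peaks, and 26.2% on X to 46.0% on chromosome 19. Chromosome 19, with 25.3 protein-coding genes per Mb, was the single chromosome with more Rad21 than CTCF peaks, 2074 against 2004. On the other 23 chromosomes CTCF peaks outnumbered Rad21 peaks by 1.22 times (chromosome 16) to 3.04 times (Y). Chromosome X had 9.42 CTCF and 5.40 Rad21 peaks per Mb, against 26.6 and 16.9 on chromosome 1.

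CTCF peaks of high rank were more often shared with Rad21. Each list was ordered by the −log10 p of column 8 and divided into 10 bands of equal size, from the strongest (band 1) to the weakest (band 10). In band 1 of the CTCF list 80.9% (79.9 to 81.9) were overlapped by Rad21, and in band 10 7.87% (7.22 to 8.57), a difference of 73.1 points (71.8 to 74.2). The share was lower in each band than in the one before. The CTCF motif, described below, had the same order and was found in 91.0% of band 1 and 11.7% of band 10. CTCF peaks with Rad21 had a median −log10 p of 81.4 and a median fold enrichment of 13.4, against 18.4 and 7.71 without Rad21.

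The Rad21 list showed another shape. The share overlapped by CTCF was 90.9% in band 1, 43.2% in band 3 and 63.8% in band 9. Within 1 kb of a start site lay 54.6% of band 1, 69.9% of band 3 and 31.3% of band 9, and the part of the start sites in this shape was not tested. Rad21 peaks with and without CTCF had nearly the same median −log10 p, 24.5 for both. Their median fold enrichments were 9.001 and 4.91. Ranked by fold enrichment, the share of Rad21 peaks with CTCF fell from 97.2% in band 1 to 6.56% in band 10.

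By fold enrichment the CTCF list in turn lost its steady decline. The share with Rad21 was 72.2% in band 1, 18.8% in band 8 and 46.6% in band 10, the lowest in enrichment. In band 10 50.2% of the peaks lay near a start site and the local background, the number of reads expected there, had a median of 11.5, against 1.75 in band 1. Whether the start sites or the background had a part in this turn was not tested.

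**Figure D1:**
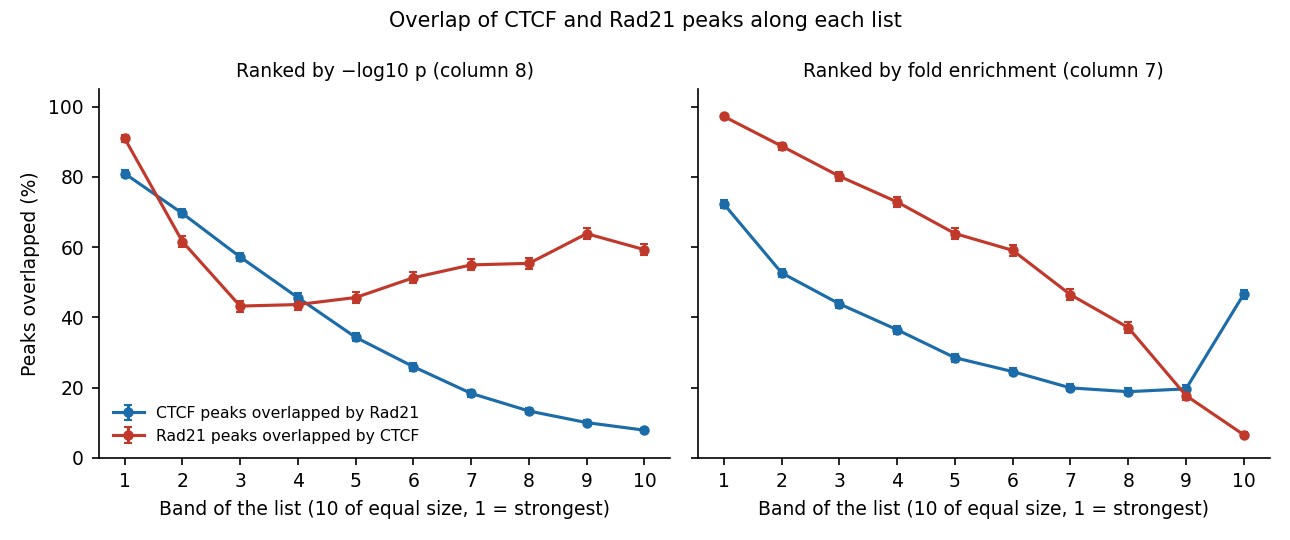
Share of CTCF peaks overlapped by Rad21 (blue) and of Rad21 peaks overlapped by CTCF (red), in percent, for 10 bands of each list from strongest to weakest, ranked by −log10 p (left) or fold enrichment (right). Bars are 95% Wilson intervals. By p the CTCF line falls from 80.9% to 7.87% while the Rad21 line turns up after band 3, and by fold enrichment the Rad21 line falls from 97.2% to 6.56%.

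The heads of both lists were occupied by sites of both proteins, but seldom by the same sites. Of the 1000 highest CTCF peaks 90.3% (88.3 to 92.0) were overlapped by a Rad21 peak of any rank, and 1.90% (1.22 to 2.95, 19 peaks) by one of the 1000 highest Rad21 peaks. Of the 1000 highest Rad21 peaks 97.6% (976 peaks) were overlapped by CTCF. No expected share was computed for the 1.90%, so whether it is a depletion was not tested. At their paired sites the 1000 highest CTCF peaks had a Rad21 partner at a median of 47.5% down the Rad21 list, and the 1000 highest Rad21 peaks a CTCF partner at 13.3% down the CTCF list. For comparison, all Rad21 peaks with CTCF had a median of 49.97% down their list, and all CTCF peaks with Rad21 one of 25.2%. The first partner value was thus near that of all shared Rad21 peaks.

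The 21971 paired sites are CTCF and Rad21 peaks that overlap and whose summits are each other's nearest. Across them Spearman's rho of the 2 ranks was 0.12, with a range over 23 chromosomes from −0.03 on chromosome 20 to 0.19 on chromosome 22. It was 0.20 when 50% of both peaks had to be shared. Pileup and local background were solved for every peak from its fold enrichment and p. Across the same sites the pileups of CTCF and Rad21 had a rho of 0.61, the local backgrounds one of 0.95 and the fold enrichments one of 0.08. These points share the line, the caller, the position and the base composition, and are given as a description. Whether both lists were called against the same control is not given.

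The pileup had a ceiling in both lists. The highest was 260 reads for CTCF, reached by 48 peaks, and 298 reads for Rad21, reached by 76 peaks. Both were exactly 2 times the width of the narrowest peak of the same list, 130 and 149 bp. Of the 1000 highest peaks, 13.8% of CTCF and 47.2% of Rad21 were within 10% of this ceiling. Duplicate reads had been removed by the authors before calling, and whether this set the ceiling was not tested. The median background of the 1000 highest peaks was 2.41 reads for CTCF and 10.5 for Rad21, and 28.1% of those CTCF peaks and 0% of those Rad21 peaks lay within 5% of the lowest background of their list.

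The strongest peaks of each list are examples. The 5 highest CTCF peaks all overlapped Rad21 and carried the motif. The first (chr6:72412157-72412578) was intergenic, 45.7 kb from a start of RIMS1, a protein of the synaptic active zone, with a fold enrichment of 99.5 and a pileup of 249. The others lay near SIRPB2 on chromosome 20 (intergenic), in an intron of WWC3 on X, by a start site inside HDAC2, a histone deacetylase, on chromosome 6, and near CAPN13 on chromosome 2 (intergenic), with fold enrichments of 83.1 to 98.7. The 5 highest Rad21 peaks all overlapped CTCF and carried the motif, and 4 were intergenic. The first (chr2:205925781-205926131) was 137 kb from a start of INO80D, a subunit of a chromatin remodeller, with a fold enrichment of 68.9 and a pileup of 268. The next were near EFL1 and PML on chromosome 15 and FOXD2 on chromosome 1, and in an intron of ATP9B on chromosome 18, with fold enrichments of 43.7 to 89.3.

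At paired sites the summits nearly coincided. The median distance between the CTCF and the Rad21 summit was 27 bp (quartiles 12 and 56 bp), and chromosome medians ranged from 21 bp on chromosome 16 to 34 bp on chromosome 4. Within 50 bp lay 71.9% of the pairs, within 100 bp 89.2% and on the same base 1.00%. The distance was shorter at high ranks, with medians of 17, 29 and 43 bp in the 3 equal groups of pairs from the strongest to the weakest by summed rank.

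The CTCF motif was more frequent at the shared sites. A match was a score within 50 bp of the summit that 2% of windows 2 kb from the chromosome 1 training peaks reached, and chromosome 1 was left out of the values. The motif was found at 75.1% (74.5 to 75.7) of CTCF peaks with Rad21 and at 43.7% (43.2 to 44.3) of those without, a difference of 31.3 points (30.5 to 32.1). With the CTCF list shortened to its 38888 highest peaks the difference was 19.1 points (18.2 to 20.02). In windows 2 kb away it was found in 2.09% and 1.69%. Rad21 peaks with CTCF had it in 52.8% and Rad21 peaks without CTCF in 12.1% (11.6 to 12.7), against 2.22% in the windows 2 kb from the latter. For Rad21 peaks the search was centred on the Rad21 summit and not on the CTCF summit. The windows 2 kb away were not matched in G+C content. Of the 16737 Rad21 peaks without CTCF, 15090 lay outside chromosome 1.

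Rad21 was more frequent at better matches. CTCF peaks without a match had Rad21 in 20.1% of cases (19.6 to 20.6), and the 30350 with a match in 49.4% (48.8 to 49.97). In 4 groups of equal size by score, the peaks with a match had it in 38.0%, 44.9%, 50.7% and 64.0%, from the lowest to the highest scores. The intervals of these groups did not overlap. Where a Rad21 peak without CTCF did carry a match, its score was lower, with a median of 12.1 on the log2 scale of the matrix against 16.8 at Rad21 peaks with CTCF.

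The Rad21 summit was displaced to 1 side of the motif. At 14890 paired sites with the motif, it lay a median of 18 bp to the 3′ side of the centre of the core (quartiles −7 and 41 bp). Leaving out 134 sites where both were on the same base, 69.96% (69.2 to 70.7, 10323 of 14756) of the Rad21 summits were on the 3′ side. The share was above 50% on each of 22 chromosomes, from 66.3% on chromosome 18 to 76.3% on chromosome 16. The side followed the strand of the motif and not the coordinate, since 68.1% of Rad21 summits lay at a higher coordinate than forward motifs and 28.1% at a higher coordinate than reverse motifs.

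The CTCF summit was displaced in the same direction by a median of 8 bp, and 75.04% of CTCF summits were on the 3′ side. As the motif was searched within 50 bp of the CTCF summit, its distance from that summit was bounded. Measured from the CTCF summit, the Rad21 summit was 9 bp further to the 3′ side, and 61.8% (61.04 to 62.6) lay there. The 3′ share was 75.5% in the strongest of the 3 groups of pairs by summed rank, 68.7% in the middle and 65.7% in the weakest. It was 70.2% near start sites, 68.4% in exons, 68.8% in introns and 71.7% in intergenic DNA.

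**Figure D2:**
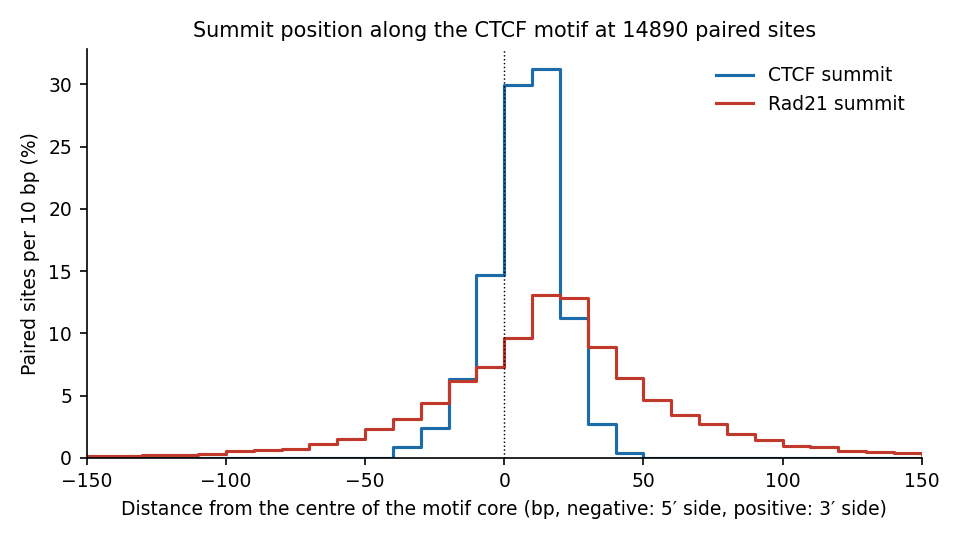
Distance in bp of the CTCF summit (blue) and the Rad21 summit (red) from the centre of the motif core at 14890 paired sites, as the percent of sites per 10 bp, with the 3′ side of the motif to the right. The CTCF summits form a narrow peak with a median of 8 bp, and the broader Rad21 distribution has its median at 18 bp.

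All 5 paired sites shown above had the Rad21 summit on the 3′ side of the motif, by 32, 20, 21, 33 and 34 bp in the order listed, and their CTCF and Rad21 summits were 20, 1, 18, 3 and 8 bp apart. Site 1 lay in an intron of RASGRF2, an exchange factor for Ras-family GTPases, and site 4 in an exon of GSTO2, a glutathione transferase. Sites 2, 3 and 5 were intergenic, with CYBRD1, SELPLG and ZMYND8 as the nearest protein-coding starts, 51.2, 6.04 and 27.3 kb away. At site 4 the CTCF rank was 723 and the Rad21 rank 6, and at site 2 they were 154 and 537.

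The orientation of neighbouring sites changed with their distance. Neighbouring paired sites that both carried the motif were classed as convergent (a forward then a reverse motif), divergent, or on the same strand. Over all 11618 such neighbours 23.9% (23.2 to 24.7) were convergent, 27.3% divergent and 48.7% on the same strand. Under 10 kb apart 11.9% (10.5 to 13.5) were convergent and 30.1% divergent. At 100 kb or more the order was turned, with 34.1% (32.6 to 35.6) convergent and 20.4% (19.2 to 21.7) divergent. Convergent neighbours were a median of 95.3 kb apart and divergent ones 42.5 kb. A site can belong to 2 neighbouring pairs, so that these counts are not independent. Neighbours were successive sites of the same class, here and for the CTCF sites without Rad21 below. CTCF peaks of the other class can lie between them.

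CTCF sites without Rad21 showed less of this pattern. Convergent pairs made up 22.95% of their neighbours under 10 kb and 26.99% at 100 kb or more. The paired sites thus had fewer convergent neighbours under 10 kb (difference −11.04 points, interval −13.7 to −8.37) and 7.08 points more at 100 kb or more (4.78 to 9.35). Over all distances the difference was −0.19 points (−1.39 to 1.01).

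**Figure D3:**
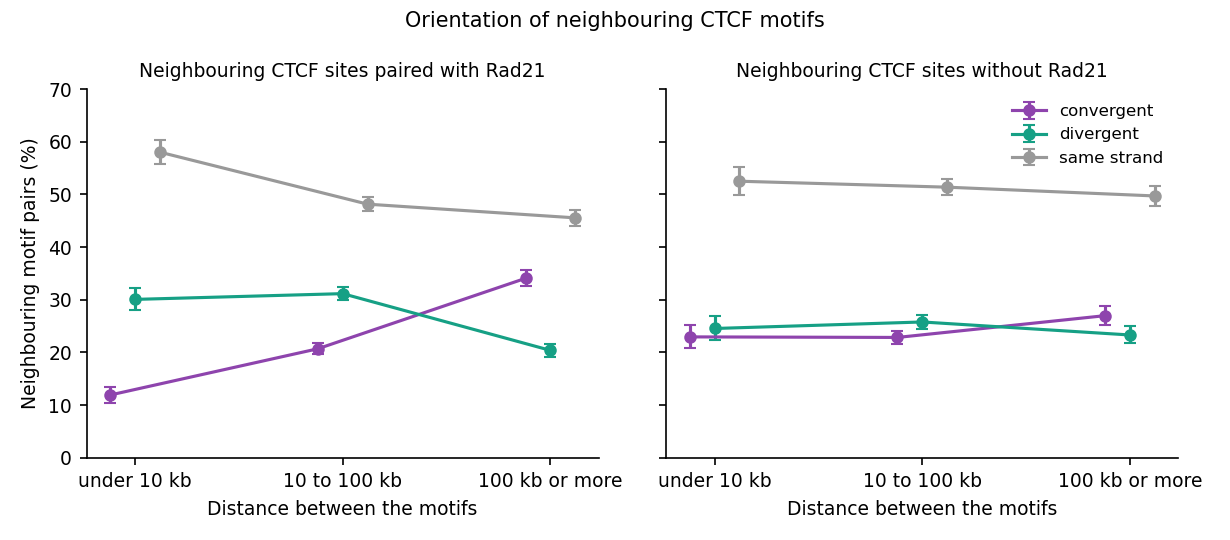
Share of convergent, divergent and same-strand motif pairs, in percent, among neighbouring CTCF sites paired with Rad21 (left) and among neighbouring CTCF sites without Rad21 (right), in 3 classes of distance. Bars are 95% Wilson intervals. On the left convergent pairs rise from 11.9% to 34.1% with distance and cross the divergent pairs, and on the right they go from 22.95% to 26.99%.

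Spacing along the chromosomes differed between the classes. Neighbouring CTCF summits were a median of 18.3 kb apart (quartiles 5.67 and 49.0 kb, n = 61201 gaps), with chromosome medians from 12.7 kb on chromosome 19 to 61.5 kb on Y. Neighbouring Rad21 summits were 24.2 kb apart (quartiles 5.47 and 68.1 kb, n = 38864 gaps), from 11.5 kb on chromosome 19 to 149 kb on Y. The order turned for lists of equal length, where the CTCF gap was 30.5 kb and the Rad21 gap still 24.2 kb. CTCF peaks with Rad21 were sparser than the more numerous ones without, with medians of 51.0 and 30.7 kb. Rad21 peaks without CTCF had the highest share with the next such summit within 1 kb, 17.6% (17.0 to 18.2). The share was 13.1% over all Rad21 peaks, 5.57% of CTCF peaks without Rad21 and 2.80% of CTCF peaks with Rad21. Near a start site lay 78.8% of the Rad21 peaks without CTCF, and their share within 1 kb was not computed away from start sites. The mean gap of Rad21 peaks without CTCF, 177 kb, was nevertheless the longest of the classes.

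In 2902 bins of 1 Mb the numbers of CTCF and Rad21 peaks had a Spearman's rho of 0.92, as a description of bins that differ in gene density. The median bin held 18 CTCF and 10 Rad21 peaks. There were 136 bins without CTCF, 313 without Rad21 and 121 without either. The bin richest in CTCF was chr11:65000001-66000000, with 96 CTCF and 92 Rad21 peaks and 50 protein-coding genes. By contrast chr11:12000001-13000000 held 88 CTCF and 25 Rad21 peaks and 4 protein-coding genes. The bin richest in Rad21 was chr19:1000001-2000000, with 108 Rad21 and 62 CTCF peaks.

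Gene location separated the lists most at start sites. Within 1 kb of a start site in GENCODE lay 51.2% of Rad21 and 20.4% of CTCF summits, a difference of 30.8 points (30.2 to 31.4), against 7.19% of genome bases. The difference came with the unshared peaks. Of Rad21 peaks without CTCF 78.8% (78.1 to 79.4) were near a start site and of CTCF peaks without Rad21 14.6% (14.3 to 15.0), while CTCF peaks with Rad21 were at 30.6%. In introns lay 10.8% of Rad21 peaks without CTCF and 51.7% of CTCF peaks without Rad21, against 51.1% of genome bases. Read the other way, 33.8% of Rad21 peaks near start sites were overlapped by CTCF, and 82.0% of those in introns and 81.8% of those in intergenic DNA.

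The local background also differed by location. Near start sites it had a median of 15.5 reads in the Rad21 list and 8.25 in the CTCF list, and elsewhere 1.4997 and 1.998. The median pileup of Rad21 near start sites was 82 reads and elsewhere 24. The part of the background in the excess near start sites was not tested.

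**Figure D4:**
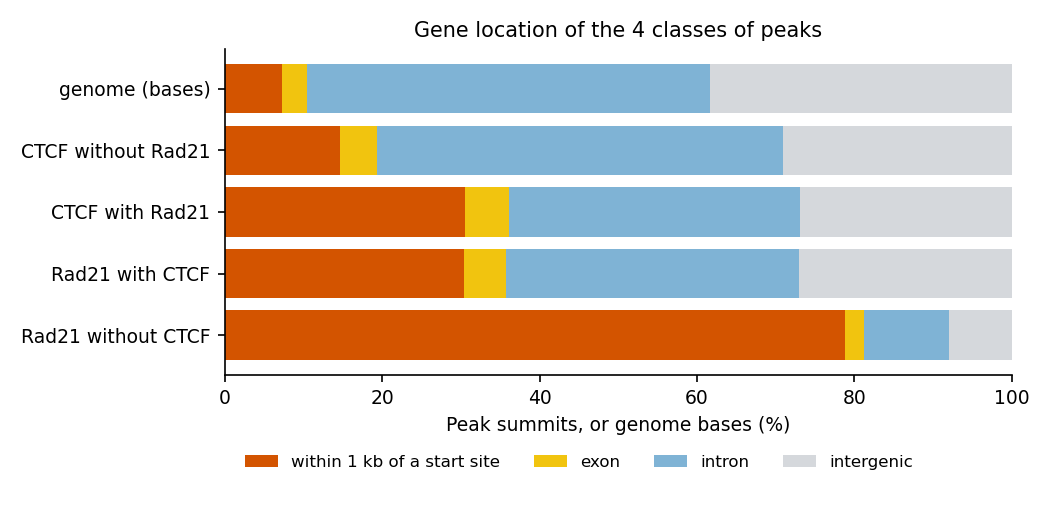
Gene location of peak summits in percent for the 4 classes of peaks, with the share of genome bases in the top bar. Near start sites lie 78.8% of Rad21 peaks without CTCF, 30.4% of Rad21 peaks with CTCF, 30.6% of CTCF peaks with Rad21 and 14.6% of CTCF peaks without Rad21, against 7.19% of genome bases.

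Base composition followed the same division. In the 101 bases around the summit the median G+C content was 73.3% at Rad21 peaks without CTCF, with a mean of 10.6 CpG. It was 59.4% and 4.63 CpG at Rad21 peaks with CTCF, and 50.5% and 1.65 CpG at CTCF peaks without Rad21. The Rad21 sequence at TSC22D1 shown above is of the first kind.

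Other B2B lists told the unshared peaks apart further. Rad21 peaks without CTCF were overlapped by H3K27ac, a mark of active promoters and enhancers, in 76.4% of cases, by H3K4me3 in 63.3% and by pol II, the polymerase of messenger RNA, in 44.9%. CTCF peaks with Rad21 were at 26.3%, 16.05% and 19.2%, and CTCF peaks without Rad21 at 11.4%, 8.46% and 16.1%. Away from start sites the order for H3K27ac stayed, at 42.6% (41.0 to 44.2) of Rad21 peaks without CTCF and 11.3% (10.8 to 11.8) of those with CTCF. The Mediator subunit Med1, whose list stops on chromosome 15 and was compared on chromosomes 1 to 14, was at 27.5% and 13.97% there. The contrast in pol II was much smaller away from start sites. Pol II was there at 14.4% of Rad21 peaks without CTCF, 9.37% of CTCF peaks with Rad21 and 12.8% of CTCF peaks without Rad21. H3K4me3 was at 15.1%, 4.90% and 4.28% in the same order. Over all locations, no peak of pol II, H3K4me3, H3K27ac or Jun was found at 18.5% of Rad21 peaks without CTCF, against 61.3% of Rad21 peaks with CTCF. Near a start site lay 78.8% of the former and 30.4% of the latter, and these shares were not computed away from start sites.

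The CTCF peaks without Rad21 stood apart in Jun, a subunit of the AP-1 transcription factor. Jun peaks overlapped 31.1% (30.6 to 31.5) of them and 14.7% (14.3 to 15.2) of CTCF peaks with Rad21, a difference of 16.3 points (15.7 to 17.0). The difference lay in peaks without the CTCF motif. Of the 19756 CTCF peaks outside chromosome 1 with neither Rad21 nor the motif, 50.6% (49.95 to 51.3) were overlapped by Jun, and of the 15355 with the motif but no Rad21 5.44% (5.10 to 5.81). The AP-1 letters TGANTCA, which read the same on both strands, lay within 50 bp of the summit in 14.4% (13.9 to 14.9) of the former, against 3.15% of windows 2 kb away. In the latter they lay in 3.20%, against 2.94%.

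CTCF peaks with Rad21 but no motif were overlapped by Jun in 35.8% (34.5 to 37.2), and those with Rad21 and the motif in 7.60%. Rad21 peaks without CTCF were at 7.08%, and at 19.1% away from start sites. CTCF peaks with neither Rad21 nor the motif were weak, with a median −log10 p of 13.2 against 99.0 for those with both. JunB and JunD, whose lists are shorter, overlapped 10.7% and 7.59% of CTCF peaks without Rad21 and 5.82% and 3.84% of those with Rad21.

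**Figure D5:**
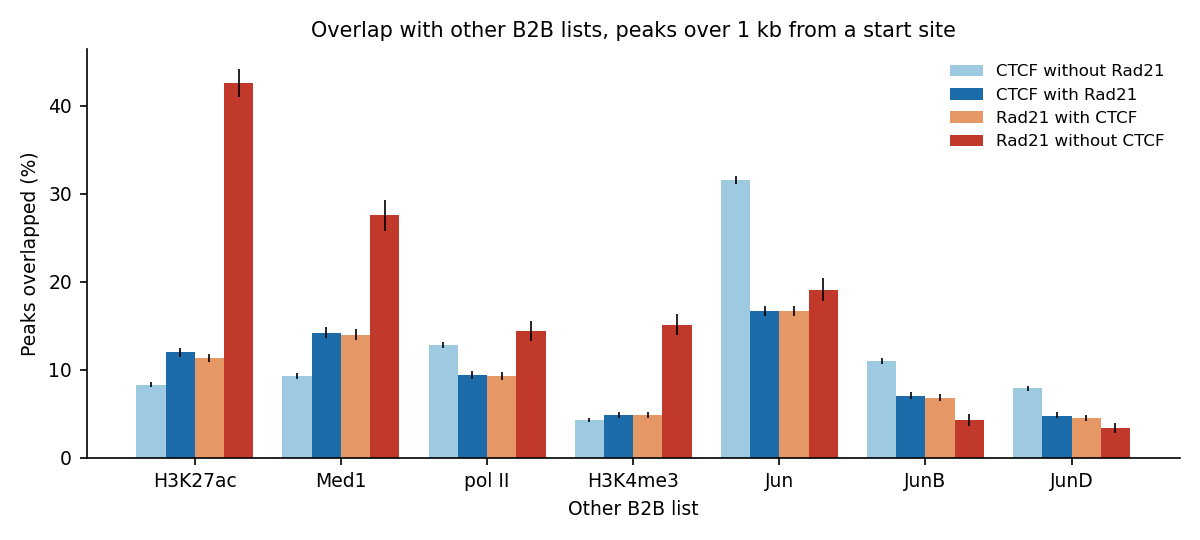
Share of peaks over 1 kb from a start site that overlap a peak of 7 other B2B lists, in percent, for the 4 classes of CTCF and Rad21 peaks (Med1 on chromosomes 1 to 14). Lines on the bars are 95% Wilson intervals. H3K27ac is highest at Rad21 peaks without CTCF (42.6%) and Jun at CTCF peaks without Rad21 (31.6%).

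Among 20033 protein-coding genes, 38% had a CTCF peak and 64.4% a Rad21 peak within 1 kb of a start site, the background for the groups below. For 26.3% the CTCF peak there was itself overlapped by Rad21. A Rad21 peak without a CTCF peak was near 31.1% of the genes and a CTCF peak without a Rad21 peak near 4.78%.

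The gene groups departed from this in both directions. Of 53 clustered protocadherins, adhesion genes whose promoters bind CTCF and are chosen one by one in neurons, 31 (58.5%) had CTCF and 13 (24.5%) had Rad21, and 19 had CTCF alone. Of 509 zinc finger genes named ZNF, 164 (32.2%) had CTCF and 390 (76.6%) Rad21, and 251 (49.3%) had Rad21 alone. Replication-dependent histone genes, which are short and lie in clusters, had CTCF at 50 of 69 (72.5%) and Rad21 at 55 (79.7%). The 415 olfactory receptors, silent outside the nose, had CTCF at 9 (2.17%) and Rad21 at 5 (1.20%).

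Cytosolic ribosomal protein genes had CTCF at 51 of 86 (59.3%) and Rad21 at 64 (74.4%), and mitochondrial ones at 43 (55.1%) and 61 (78.2%) of 78. HOX genes had CTCF at 13 of 39 (33.3%) and Rad21 at 19 (48.7%), and keratins at 6 of 55 (10.9%) for each, below the share of all genes. Of 17 AP-1 family genes 10 (58.8%) had CTCF and 15 (88.2%) Rad21, and of 6 MHC class I genes 1 and 4. Neighbouring genes of a cluster can share 1 peak.

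Among the genes of the machinery itself, CTCF was near 15 of 22, beside 38% of all protein-coding genes. Rad21 was near 16 of 22, beside 64.4% of all protein-coding genes. Of the ring, STAG2 on X had the strongest Rad21 peak, at rank 64 of the list with a −log10 p of 313. Of its 3 CTCF peaks, the best at rank 2639, 1 was overlapped by Rad21. STAG1 had ranks 2051 for Rad21 and 11747 for CTCF. SMC1A had a Rad21 peak at rank 3572 that no CTCF peak overlapped, and SMC3 had 1 peak of each that did not overlap. RAD21 had 2 peaks of each protein, the better of them at rank 20314 for Rad21 and 37186 for CTCF. The meiotic subunits REC8 and SMC1B had no peak, and STAG3, also meiotic, had 1 of Rad21 at rank 19155.

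Among regulators, both loader genes had overlapping peaks, NIPBL with a best Rad21 rank of 5588 and MAU2 with 5812. Of the cohesin release and pausing factors, PDS5A (rank 2245) and PDS5B (rank 1867) had overlapping peaks, and WAPL a single Rad21 peak at rank 27881. The acetyltransferase gene ESCO1 and the sororin gene CDCA5 had overlapping peaks, and ESCO2 a CTCF peak only. The separase gene ESPL1 had overlapping peaks, SGO1, which protects centromeric cohesin, a Rad21 peak only, and HDAC8 and PTTG1 neither. The gene CTCF had 3 CTCF peaks and 1 Rad21 peak, at rank 3060, and its germline paralogue CTCFL a CTCF peak alone, at rank 36697.

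The H19 and IGF2 interval, where CTCF binds the unmethylated maternal copy of an imprinting control region, held 14 CTCF and 13 Rad21 peaks and 9 paired sites within 20 kb (chr11:1975166-2178391). Of these, 6 pairs lay between positions 1998453 and 2003132, around the H19 gene. The best matches of 5 of them were near copies of 1 sequence, all on the minus strand, and are printed because their scores of 7.93 to 9.44 were under the threshold of 9.66, so that they count as peaks without the motif above.
H19 site 2, chr11:1999946-2000006, minus strand: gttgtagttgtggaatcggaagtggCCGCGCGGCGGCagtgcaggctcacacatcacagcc
H19 site 3, chr11:2000758-2000818, minus strand: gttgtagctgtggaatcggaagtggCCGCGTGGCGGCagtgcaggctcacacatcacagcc
H19 site 4, chr11:2002191-2002251, minus strand: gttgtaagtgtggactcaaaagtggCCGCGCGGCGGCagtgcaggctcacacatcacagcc
H19 site 5, chr11:2002592-2002652, minus strand: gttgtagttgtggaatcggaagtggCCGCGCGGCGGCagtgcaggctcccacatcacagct
H19 site 6, chr11:2002997-2003057, minus strand: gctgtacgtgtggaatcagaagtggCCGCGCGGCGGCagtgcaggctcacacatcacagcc

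Site 3 differed from site 2 by 1 of the 12 core bases (C6T, counted from the first capital), and the cores of sites 4, 5 and 6 were identical to that of site 2. Sites 4, 5 and 6 followed each other at 401 and 405 bp. The CTCF pileups of sites 2 to 6 were 81, 72, 74, 37 and 78 reads, and the Rad21 pileups 116, 116, 91, 30 and 126 reads, so that site 5 was lowest for both. The Rad21 summit was on the 3′ side of the motif at each of them, by 35, 14, 33, 10 and 12 bp. Reads from copies this alike may be placed at the wrong copy.

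The other loci differed in how many of their peaks were shared. Around EGFR (chr7:54999017-55231628), the gene of a growth factor receptor, there were 20 CTCF and 6 Rad21 peaks and 4 paired sites, 13 of the CTCF peaks overlapped Jun and 2 carried the motif. Around KLF6, a transcription factor gene on chromosome 10, 9 CTCF and 3 Rad21 peaks made 1 paired site, and 5 CTCF peaks overlapped Jun. FGFR1 had 13 CTCF and 8 Rad21 peaks and 4 paired sites, CFTR 8 and 7 with 4, and HSP90AB1 8 and 6 with 4. SRC had 4 and 3 with 1, SDHAF2 3 and 3 with 2, and POU5F1 2 and 5 with 2. APOA1 had 1 paired site and HBB no peak of either protein. CTCF peaks that overlapped Jun numbered 6 at FGFR1, 2 at HSP90AB1 and 1 each at CFTR and SDHAF2. They numbered 0 at H19-IGF2, SRC, POU5F1 and APOA1. Over the whole list, Jun overlapped 31.1% of CTCF peaks without Rad21 and 14.7% of those with Rad21.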

How the data were processed

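ChIP-seq of CTCF and Rad21 in BEAS-2B was used, 2 replicates each. The authors aligned reads to hg38 (Bowtie2 2.4.4), discarded duplicate reads by custom code, and called peaks on the merged replicates (MACS2 2.2.7.1) (SAMtools 1.13 is also named). Caller options and the control are not given in the sources used here. The deposited narrowPeak columns hold fold enrichment as a ratio, −log10 p and −log10 q (lowest 2.01 and 2.03), and positions. CPM tracks and read totals were not used here, so that library depth is unknown. Depth therefore enters only as the pileup, with medians of 42 reads for CTCF and 55 for Rad21. Pileup and local background were solved from the fold enrichment, taken as (pileup + 1)/(background + 1), and the Poisson p, within 0.01 of −log10 p for 100% of peaks.

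Intervals, shares and the motif matrix were computed in Python 3.11.15 with numpy 2.4.6, pandas 2.3.3, scipy 1.17.1 and pysam 0.24.0, and tested on simulated data (overlaps against bedtools 2.31.1). Annotation was GENCODE 44 on GRCh38, and a summit was assigned, in this order, to within 1 kb of any start site, exon, intron or intergenic DNA. The motif matrix was learnt from the 8 bases most enriched at the 2000 training summits, in 20 rounds. Matches were sought on both strands.

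Named sites were the 5 highest peaks of each list, the 5 paired sites with the smallest rank sum and the 3 highest peaks per list with no peak of the other within 1 kb (2 of these Rad21 sites are not reported here), with the machinery genes, gene groups and loci in the text. The 5 H19 sequences, the Jun comparison by motif and the 1 Mb bins were chosen after values were seen. The members and lists were chosen with earlier results of these data known. Alternatives were another overlap rule, stricter or equal lists, another ranking, motif threshold, window and start-site distance.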

Additional observations from a re-analysis of the deposited data

Results flagged for a closer look

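Peaks outside chromosomes 1 to 22, X and Y were not used in the comparison. The CTCF list held 20 peaks on the mitochondrial genome and 123 on unplaced or alternate sequences. The Rad21 list held 61 peaks on unplaced or alternate sequences and 0 on the mitochondrial genome. The 20 CTCF peaks on the mitochondrial genome were above the 3 that a count of 0 there allows. The counts on unplaced or alternate sequences have no such bound, and control samples for these positions were not analysed here.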

How the results depend on the processing

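No paired analysis was possible because the replicates were merged before peaks were called, and no replicate could be left out. Of 42 values under alternatives, 22 stayed within the counting interval of the reported value (or 1 SD between chromosomes), 20 moved beyond it and 0 changed sign. The CTCF and Rad21 spacings were scored separately. The reversal of their order with lists of equal length therefore could not count as a change of sign. Some of the 22 could hardly move. No interval was listed more than once, and lists of equal length left the Rad21 list unchanged. The 1 Mb bins without a start site, left out in another alternative, held 20 CTCF and 8 Rad21 peaks. The band for Rad21 spacing ran from −2.10 to 50.5 kb, too wide to show stability. The causes of the moves were not tested.

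With 50% of both peaks shared, 26.8% of CTCF and 42.2% of Rad21 peaks were overlapped and rho of the ranks was 0.20. With summits within 100 bp the shares were 32.0% and 50.4%, and bands 1 and 10 of the CTCF list differed by 70.9 points. With lists of equal length (38888 peaks), 50.4% of CTCF and 50.5% of Rad21 peaks were overlapped, the start-site difference was 29.5 points, the CTCF spacing 30.5 kb, above the 24.2 kb of Rad21 and so in the reverse of the reported order, and the motif difference 19.1 points. Ranked by fold enrichment, bands 1 and 10 differed by 25.6 points. At −log10 q of at least 5 the start-site difference was 31.5 points, with starts within 3 kb 27.2 and with protein-coding starts only 29.7. With the score that 0.5% of windows reached, the motif difference was 30.3 points, the 3′ share 70.8% and the convergent share 23.1%, and with a window of 25 bp the motif difference was 25.5 points. The 3′ share measured from the CTCF summit, added after seeing the data, was 61.8%.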
